A study of Mus musculus with 12 samples.

Results

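The genes of the cytosolic ribosomal proteins were followed in OTII cells primed in mice with or without IL-6. They were taken by symbol, as Rpl or Rps followed by a number with an optional final a, x or l, plus Rplp0, Rplp1, Rplp2 and Rpsa, without rows marked as pseudogenes by "-ps" and without the Rps6k kinases. This rule, which uses no measured value, found 83 members among 40840 listed genes, 81 of them annotated as protein coding and 2 (Rpl32l and Rpl6l) as pseudogenes. Of the 83, 81 passed the filter on low counts and were tested, 49 named for the large and 32 for the small subunit. The remaining 2, the tissue-restricted copies Rpl10l and Rpl3l, had at most 1 and 4 counts in a library. Several proteins of the ribosome carry other symbols and fall outside the rule (such as Rps3a1, Fau, Rack1, Rpl36al, and the copies Rpl7l1 and Rpl22l1), and they are described separately.

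OTII cells are CD4+ T cells whose transgenic receptor recognizes an OVA peptide. In the study, such cells were transferred into WT (B6) or Il6-/- recipients of the strain B6.129S2-IL-6tm1Kopf/J, which were sensitized i.n. with house dust mite extract containing LPS (HDM-LPS) and LPS-free EndoFit OVA, and the OTII cells were sorted from the mediastinal lymph nodes on Day 3 or Day 5. The 4 groups were thus WT and Il6-/- recipients on Day 3 and on Day 5, with 3 libraries each and 12 in all. All groups shared the OTII donor cells and the sensitization, and only the recipients lacked Il6, so Il6 in the sorted cells (0 to 5 counts in a library) does not check the labels. The age of the mice and whether replicates came from separate mice are not given in the sources used here, so p-values measure the spread between these samples, which may be technical. The sample labels name blood as the tissue and leave out LPS. The series description also counts days from another start than the paper, whose account was followed.

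The ribosome joins amino acids into proteins, with a small subunit that reads the mRNA and a large subunit that forms the peptide bonds. Each ribosome holds a single copy of most of these proteins, and their mRNAs are among the most abundant in proliferating cells such as activated T cells. Most of these mRNAs begin with a C and a run of pyrimidines, the 5′ terminal oligopyrimidine (TOP) motif, through which the kinase mTORC1 and the RNA-binding protein LARP1 control their translation, so the level of a TOP mRNA does not give how much of it is translated.

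Start sites are shown for members with the smallest p between the days, as far as the RefSeq table (build GRCm38.p6) holds a window for them, which was so for 61 of the 83 members. Each line gives 10 bases before the annotated start and 15 from it on, on the transcript's strand. Capitals mark a run of at least 5 pyrimidines (C or T) that opens with a C within 5 bases of the annotated start.
Rps27, chr3:90213634-90213658, reverse strand: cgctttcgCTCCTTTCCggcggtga
Rps15a, chr7:118116133-118116157, reverse strand: tttctgccatCTTCCCTCgccggtg
Rpl37a, chr1:72711250-72711274, forward strand: ctcgccggtctaaaaccgcgcatgc
Rps27l at the upstream one of its annotated starts, chr9:66946076-66946100, forward strand: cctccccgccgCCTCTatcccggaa
Rps27l at the downstream start, chr9:66946403-66946427, forward strand: gggcttcagggtcactaacgggcct
Rps2, chr17:24720053-24720077, forward strand: gtcgagatctcgcgCTTCTTggagc
Rpl7a, chr2:26910797-26910821, forward strand: ctcttCTTTCTTTCTCCagcagccg
Rpl14, chr9:120571507-120571531, forward strand: ggccctCTCTCTTCTCgctgagcgc
The first 3 of these genes rose between the days in both recipients and the others fell, as given with their values further on. Windows with and without a capitalised run stand among both kinds. Such a run lay within 5 bases of a start in 29 of the 61 members (47.5%) and in 21.2% of the 27025 genes in the table. At the annotated start itself, it was found in 14 members (23.0%) and in 3.01% of all genes. Only the transcript's strand was searched, and annotated starts can lie some bases from the start used in these cells. The 29 members with a run had a median log2 fold change (log2FC) between the days of 0.42 in WT recipients, and the 30 tested members without one had 0.40.

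The counts on genes summed to 16125947 to 26111657 per library. Markers of CD4 T cells summed to 5420 to 9880 CPM (the usual depth-scaled counts, here on TMM-scaled library sizes), and all 8 of them were higher on Day 5 than on Day 3 in both recipients at an FDR under 0.05. Markers of other cells were low, with 6.55 to 16.6 CPM for 6 B cell genes (Ms4a1 at or near 0), 13.6 to 47.8 CPM for 7 myeloid and dendritic genes (Itgax and Flt3 at or near 0) and 0.282 to 1.14 CPM for 5 erythroid genes. The B cell genes summed to 6.55 to 8.69 CPM in WT and 13.7 to 14.6 CPM in Il6-/- recipients on Day 3, with Cd22 called higher in Il6-/- recipients (log2FC 3.03, FDR = 4.4e-04) and Pax5 called lower (log2FC −2.26, FDR = 0.039). Of 5 lung epithelial genes, the sum was 1.09 to 2.15 CPM in WT and 0.581 to 13.1 CPM in Il6-/- recipients on Day 3, and 3.22 to 21.5 and 5.88 to 9.63 CPM on Day 5. Of these, Sftpc was called higher in Il6-/- recipients on Day 3 (FDR = 0.041), with 0.0528, 9.34 and 0.427 CPM in the Il6-/- libraries. Most of this level came from replicate 2, which also had the highest share of counts on members in its group. Sftpc and Sftpb were called higher on Day 5 than on Day 3 in WT recipients, and Sftpb in Il6-/- recipients. The 2 CD8 genes summed to 56.6 to 85.9 CPM, nearly all from Cd8b1, with Cd8a near 0. The part of these cells in the results was not tested.

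The members together took 5.71%, 6.17% and 6.18% of the counts in the WT libraries of Day 3, and 6.77%, 7.12% and 6.60% in the Il6-/- libraries of that day. On Day 5, they took 9.06%, 8.17% and 7.48% in WT and 7.63%, 6.50% and 7.09% in Il6-/- recipients. The share in Il6-/- libraries thus lay above that in every WT library on Day 3, whereas on Day 5 the recipients overlapped and the mean was higher in WT. The means were 6.02% ± 0.269 and 6.83% ± 0.263 on Day 3 and 8.24% ± 0.794 and 7.07% ± 0.566 on Day 5 (SD, n = 3). A share of counts compares mRNA within a library, so more mRNA of these genes cannot be told apart from less of other mRNAs, nor in such bulk samples fewer cells of a type from less RNA per cell. Both subunits moved alike: the counts on small-subunit genes were 74.96 to 78.0 for each 100 on large-subunit genes over the 12 libraries. The share of counts on mitochondrially encoded genes was 0.789% to 1.08% on Day 3 and 1.47% to 2.37% on Day 5, where in each recipient it ordered the 3 libraries as the members' share did. Without those genes, the members' share averaged 6.08%, 6.89%, 8.42% and 7.21% in the same order of groups, so that the order of the groups stayed.

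**Figure D1:**
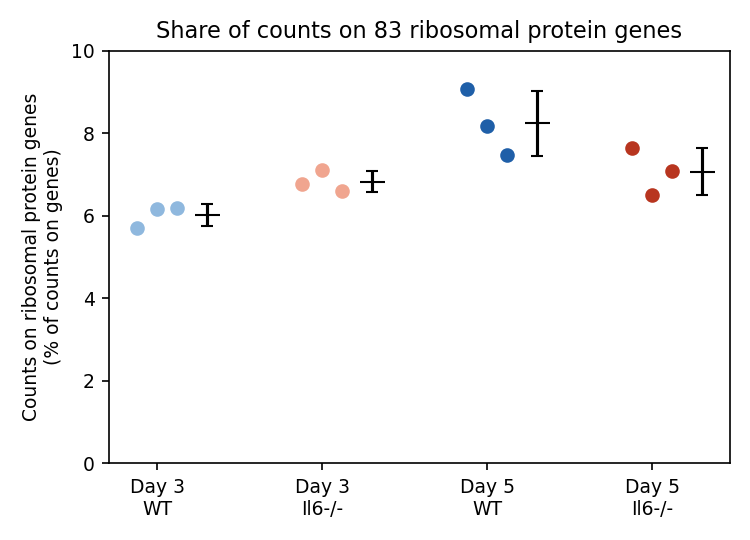
Counts on the 83 ribosomal protein genes as a percentage of the counts on genes (y axis) in each of the 12 libraries (points), by day and recipient, with the mean and SD of 3 libraries beside them. On Day 3 the Il6-/- libraries (6.60% to 7.12%) lie above the WT libraries (5.71% to 6.18%), and on Day 5 the WT (7.48% to 9.06%) and Il6-/- libraries (6.50% to 7.63%) overlap.

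Of the 81 tested members, 75 had a mean of at least 10 CPM. Per kb of coding sequence, their levels ran from 558 CPM for Rpl6 to 10720 CPM for Rpl41, the gene of the smallest ribosomal protein, with a median of 1603 CPM. Rps27, a zinc-binding protein of the small subunit, was also among the 3 highest (5782 CPM per kb). Reads also come from the untranslated parts. In the single annotated transcript used for each gene, the coding sequence is 138 of 560 bases in Rpl41 and 888 of 1549 in Rpl6. That transcript need not be the usual one. For example, Rpl39 had 237 coding bases and its copy Rpl39l 153. Which transcripts these cells used was not tested. These levels therefore depend on the choice of transcript and of coding length. The lowest tested were Rps4l, Rpl28 and Rpl39l, with 2.30, 3.76 and 4.61 CPM per kb. Rps4l and Rpl39l are additional copies of Rps4x and Rpl39, and Rpl32l and Rpl6l were also under 10 CPM. Rpl28, in contrast, encodes a standard part of the ribosome, and had 14 to 58 counts in a library. The whole coding sequence of Rpl28 overlaps the gene Ube2s on the opposite strand in GENCODE vM39 (GRCm39), and counting was without regard to strand. The part of this overlap in its low counts was not tested.

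Ribosomal protein genes have many processed copies in the genome, and reads with several matches are left out of such counts. Over the coding sequences, a median of 10.4% of all stretches of 50 bases, the length of the reads, had no exact match elsewhere in the genome and no overlap with another gene. Over the 81 protein-coding members, the range was 0% to 100%, with 40 at 10% or less and 18 at 50% or more. These shares rest on the same single transcript for each gene. CPM of a member thus rests on part of its mRNA, and whether the reads covered the same part in every library was not tested. Each comparison is therefore also given for the 17 tested members with at least 50%.

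The first comparison asked how priming without IL-6 changed the cells on Day 3. Ribosomal protein genes were higher when OTII cells had been primed in Il6-/- mice: 79 of 81 members had a higher and 2 a lower fitted value, 29 were called higher at an FDR under 0.05 (edgeR, Benjamini-Hochberg adjustment over all genes tested) and none lower (35.8% of members, where 7.52% of all genes tested were called higher and 6.19% lower). At an unadjusted p under 0.05, 58 differed, but the share over all genes at that threshold was not computed. DESeq2 and limma-voom called 37 and 31 higher and none lower, and called 16.5% and 14% of all genes in either direction. The median log2FC was 0.25, a fold of 1.19, against 0.01 over all genes. The 3 Il6-/- libraries lay above all 3 WT libraries for 71 members, which was so for 20.5% of all genes. Of the 29 genes called, 20 were of the large and 9 of the small subunit, with log2FC between 0.19 (Rpl4) and 0.45 (Rpl7a), and none reached 2-fold, as 0.936% of all genes did. Members with at least 50% countable sequence had a median of 0.21, and those with at most 10% had 0.27.

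Among the members with the smallest p was Rpl5, which carries 5S rRNA into the large subunit and, with Rpl11, binds the p53 regulator MDM2. It had 931, 966 and 990 CPM in the WT libraries and 1291, 1310 and 1272 CPM in the Il6-/- libraries, with a wide gap between the groups (log2FC 0.42, SE 0.06, FDR = 4.2e-04). Rpl7a, a large-subunit protein, had 444, 470 and 490 CPM in the WT libraries and 632, 666 and 613 CPM in the Il6-/- libraries (log2FC 0.45, SE 0.06, FDR = 4.5e-04). Here, too, each Il6-/- library was higher than each WT library. Rpl14, a large-subunit protein, had 865, 906 and 924 CPM in the WT libraries and 1096, 1160 and 1062 CPM in the Il6-/- libraries (log2FC 0.30, SE 0.07, FDR = 0.0071). Its neighbour in the subunit, Rpl6, had a log2FC of 0.32 (FDR = 0.0072). These 4 genes kept an FDR under 0.05 in each of the 12 fits that left out 1 library.

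The number of members called on Day 3 depended on single libraries. It was 13, 11 and 18 without WT replicate 1, 2 or 3 and 15 and 9 without Il6-/- replicate 1 or 2 of that day. Calls over all genes fell as well, from 13.7% in either direction to 11.1%, 6.71%, 8.21%, 7.33% and 8.14% in this order. The members' median log2FC stayed between 0.21 and 0.29 in the 12 fits that left out 1 library. Without scaling, it was 0.19, and 16 members were called, all of them higher, against 13.2% of all genes.

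On Day 5, the direction was the opposite. In Il6-/- recipients, 77 of the 81 members had a lower and 4 a higher fitted value than in WT recipients, 10 were called lower and none higher (12.3% of members, where 3.35% of all genes tested were called lower and 1.27% higher). At an unadjusted p under 0.05, 51 differed, but the share over all genes at that threshold was not computed. DESeq2 and limma-voom called 21 and 9 lower and none higher, and called 8.31% and 3.71% of all genes in either direction. The median log2FC was −0.25 against 0.01 over all genes, and −0.18 for the 17 members with at least 50% countable sequence. For 19 members, the 3 Il6-/- libraries lay below all 3 WT libraries, which was so for 11% of all genes. With replicate number as a block, 50 members were called lower, and 11.7% of all genes were called in either direction. That the numbers pair the libraries of this day was inferred from correlations in these same data, so this count is no independent support.

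Rps25, which some viral mRNAs need for entry at internal sites, had 1285, 1195 and 999 CPM in the WT libraries and 955, 773 and 864 CPM in the Il6-/- libraries (log2FC −0.42, SE 0.10, FDR = 0.021). All Il6-/- libraries were lower than all WT libraries, with a small gap. Rpl35, beside the exit tunnel of the large subunit, had 854, 772 and 653 CPM in the WT libraries and 636, 531 and 572 CPM in the Il6-/- libraries (log2FC −0.39, SE 0.09, FDR = 0.025), also without overlap. Rps29, a small zinc-binding protein, had 1928, 1769 and 1336 CPM in the WT libraries and 1366, 1009 and 1184 CPM in the Il6-/- libraries (log2FC −0.50, FDR = 0.031). For this gene, WT replicate 3 was lower than Il6-/- replicate 1. Rps28 (log2FC −0.58, FDR = 0.039) overlapped in the same way. Rpl31, Rpl37a, Rpl39 and Rps27 were also among the genes called.

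None of Rps25, Rpl35, Rps29 and Rps28 kept its call in all 12 fits that left out 1 library. No member was called without WT replicate 1 or 2, or without Il6-/- replicate 2 or 3 of Day 5, or when the 6 libraries of the day were fitted alone. In these fits, 1.61% to 2.76% of all genes were called in either direction, against 4.61% in the main fit. However, 38 were called without WT replicate 3 and 40 without Il6-/- replicate 1, with 7.36% and 8.38% of all genes. Without Day 3 WT replicate 2 or 3 or any of the Day 3 Il6-/- libraries, 3 or 4 were called, with 3.34% to 3.79% of all genes. The members' median log2FC was between −0.33 and −0.15 in these fits.

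The difference on Day 5 went with the length of the coding sequence. Coding lengths were those of a single annotated transcript for each gene, which need not be the one these cells used. Over the 79 members with a coding length, Spearman's rho between this length and log2FC was 0.74 on Day 5 and 0.24 on Day 3. The 40 members of at most 456 coding bases, the median, had a median log2FC of −0.32 on Day 5, and the 39 longer ones −0.14. On Day 3, the 2 sets had 0.24 and 0.27, so that shorter and longer members differed little. These genes share their libraries, and the values are a description. Within the libraries of Day 3, rho between coding length and the deviation of log2 CPM from the mean of the 12 libraries lay between 0.39 and 0.45. It was −0.53, −0.64 and −0.35 in the WT libraries of Day 5 and −0.31, 0.29 and −0.24 in the Il6-/- libraries, of which replicate 2 had the lowest share of members. An offset for gene length in each library used the length of the whole annotated transcript, not the coding length. Over the 81 tested members, rho between transcript length and log2FC on Day 5 was 0.24. With this offset, 6 members were called lower on Day 5 (median log2FC −0.15), and 28 with the block as well. Of all genes, 5.02% and 11.7% were called in these fits, in either direction. An offset for coding length was not tried. The part of fragment size or RNA quality was not tested.

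**Figure D2:**
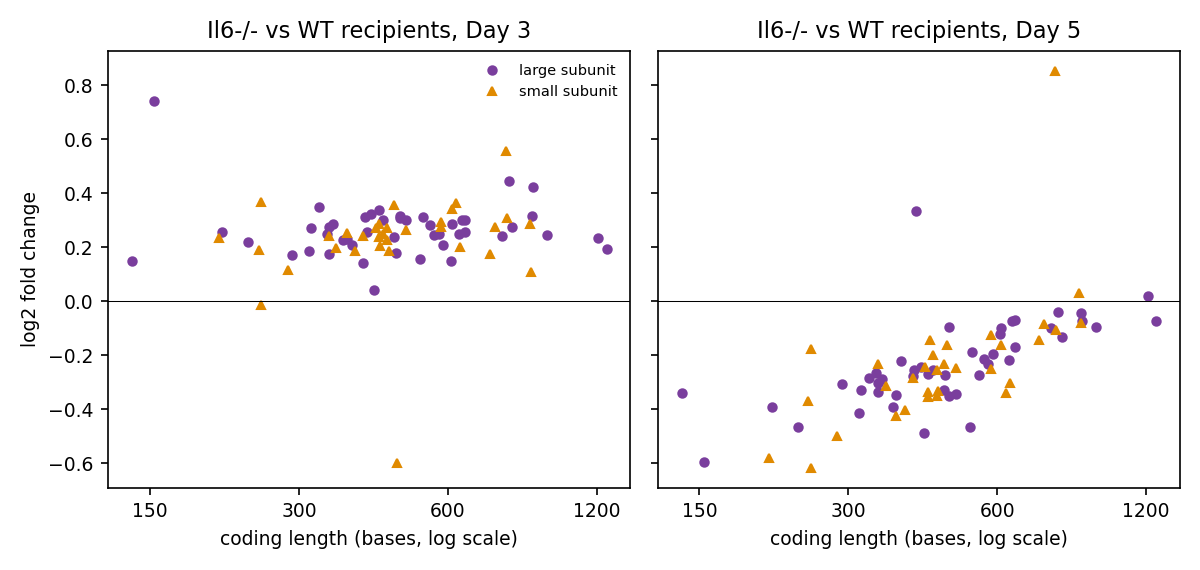
Log2 fold change in Il6-/- against WT recipients (y axis) by coding length on a log scale (x axis) for 79 members, on Day 3 (left) and Day 5 (right). On Day 3 most points lie above 0 at any length, and on Day 5 most lie below 0 and shorter members lie lower (rho 0.74).

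A test of interaction compared the effect of the recipient on the 2 days, coded as the log2FC of Il6-/- against WT on Day 5 minus that on Day 3. The difference was below 0 for 78 of 81 members, 53 were called lower and none higher (65.4% of members, where 3.12% of all genes tested were called lower and 1.8% higher). At an unadjusted p under 0.05, 75 differed, but the share over all genes at that threshold was not computed. DESeq2 and limma-voom called 66 and 53 lower and none higher, and called 8.37% and 4.36% of all genes in either direction. The median was −0.51 against 0.00 over all genes, and −0.49 for the members with at least 50% countable sequence. With the offset for gene length (of the transcript), the members' median was −0.49 and 57 were called, against 5.21% of all genes in either direction. The genes called were 34 of the large and 19 of the small subunit.

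The smallest p belonged to Rpl5, which on Day 5 had 986, 899 and 932 CPM in the WT libraries and 908, 863 and 903 CPM in the Il6-/- libraries. The wide gap of Day 3 was thus absent, and the 2 recipients overlapped (interaction −0.50, SE 0.09, FDR = 0.0076). Rps27a, whose product is a fusion of ubiquitin and a small-subunit protein, had 758, 811 and 864 CPM in the WT libraries and 1019, 1090 and 1003 CPM in the Il6-/- libraries on Day 3. On Day 5, it had 1060, 940 and 872 CPM in the WT libraries and 867, 766 and 812 CPM in the Il6-/- libraries. The recipients thus stood apart on both days, in opposite directions, and the difference was called on Day 3 (log2FC 0.36, FDR = 0.0094) but not on Day 5 (log2FC −0.23, FDR = 0.12), with an interaction of −0.59 (SE 0.12, FDR = 0.012). Rpl7a had an interaction of −0.49 (FDR = 0.0099) and Rps25 one of −0.68 (FDR = 0.013). These 4 genes kept an FDR under 0.05 in each of the 12 fits.

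As a count, the interaction depended on the libraries and the scaling. It was 7 without Il6-/- replicate 2 of Day 3, and 12 and 29 without replicates 1 and 3 of that group. Without WT replicates 1, 2 and 3 of Day 3, it was 20, 10 and 14. The count was 13 and 10 without WT replicates 1 and 2 of Day 5, and 11 and 16 without Il6-/- replicates 2 and 3 of Day 5. In these fits, 1.68% to 4.97% of all genes were called in either direction, against 4.92% in the main fit. The members' median stayed between −0.58 and −0.37 in the 12 fits.

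**Figure D3:**
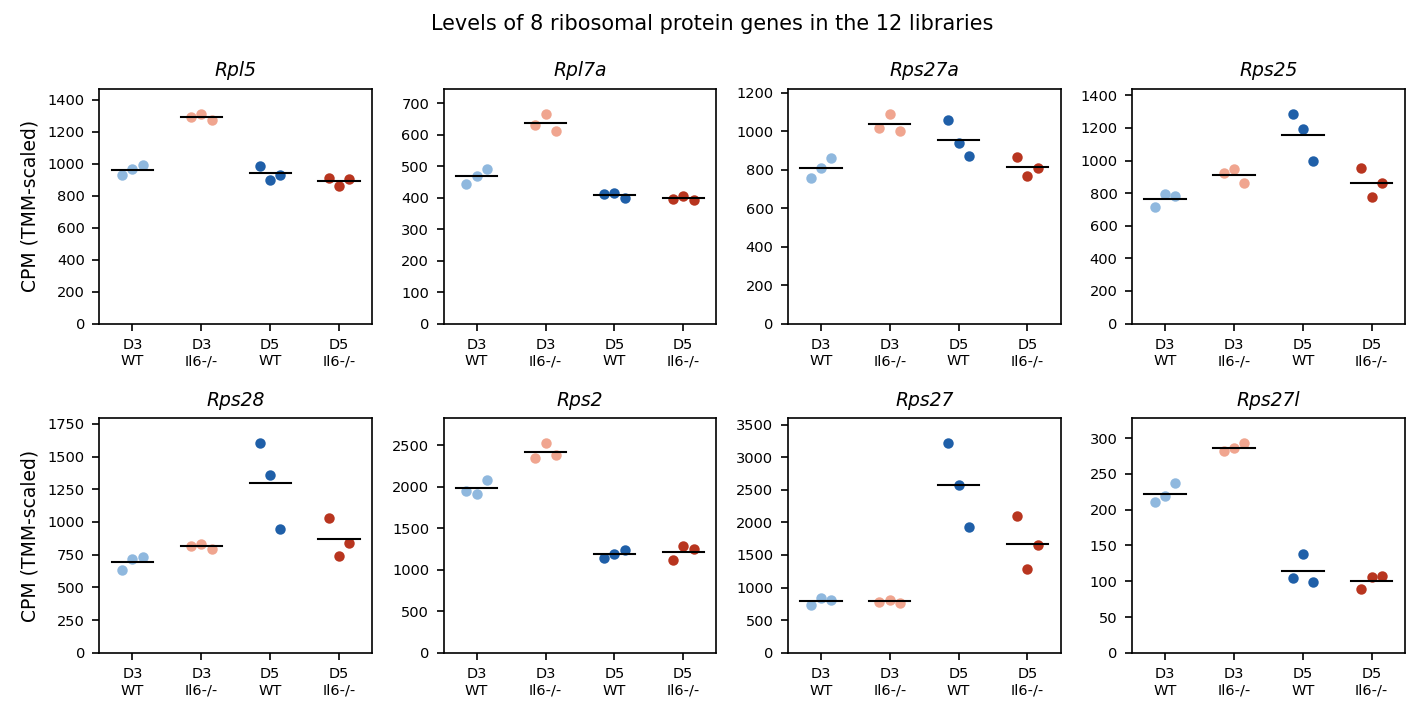
CPM on TMM-scaled library sizes (y axis, from 0) of 8 ribosomal protein genes in the 12 libraries (points) by day and recipient, with the mean of 3 libraries as a line. Rpl5 and Rpl7a are highest in Il6-/- recipients on Day 3, Rps27a is higher in Il6-/- recipients on Day 3 and in WT recipients on Day 5, Rps25, Rps28 and Rps27 are highest in WT recipients on Day 5, and Rps2 and Rps27l are lower on Day 5 in both recipients.

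The change from Day 3 to Day 5 was then compared within each recipient. The days also differed without overlap in the share of all reads in the count files that lay outside annotated genes (11.7% to 12.9% on Day 3 and 15.2% to 17.3% on Day 5) and in the share with several matches (23.72% to 25.02% and 25.5% to 28.25%). Their part in the results was not tested. In WT recipients, 67 of 81 members had a higher and 14 a lower fitted value on Day 5, 54 were called higher and 5 lower (66.7% and 6.17% of members, where 29.5% of all genes were called higher and 27.1% lower). The median log2FC was 0.42 against 0.09 over all genes. In Il6-/- recipients, 24 had a higher and 57 a lower value, 6 were called higher and 29 lower (7.41% and 35.8% of members, where 30.4% of all genes were called higher and 30.1% lower). The median was −0.12 against 0.09 over all genes. Members with at least 50% countable sequence had medians of 0.42 in WT and −0.08 in Il6-/- recipients. These 2 comparisons share no library, although each shares libraries with the comparisons of recipients and with the interaction. Of the 54 genes called higher in WT recipients, 6 were also called higher in Il6-/- recipients, 40 were not called and 8 were called lower (among them Rpl27, Rpl35a, Rpl36a, Rpl41, Rpl7, Rps12 and Rps27a). All 5 genes called lower in WT recipients were called lower in Il6-/- recipients, as were 16 genes not called in WT recipients. The difference between the recipients in this change is the interaction given above.

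The balance of calls in Il6-/- recipients depended on the scaling. With upper-quartile scaling, which raised the median of all genes to 0.29 in WT and 0.32 in Il6-/- recipients, 66 members were called higher and 2 lower in WT, and 22 higher and 11 lower in Il6-/- recipients (median 0.11). Without scaling, the calls in Il6-/- recipients were 16 higher and 18 lower, and without replicate 2 of Day 5 they were 11 and 21. Of all genes, 59.7% in WT and 63.7% in Il6-/- recipients were called in either direction with upper-quartile scaling. In Il6-/- recipients, 62.1% were called without scaling and 57.9% without replicate 2 of Day 5. Under each of the 5 scalings, the median of the members was above that of all genes in WT and below it in Il6-/- recipients. A scaling shifts all genes of a library alike, so it could hardly change this order, which is no check of the result. With an offset for gene length, the calls in WT were 34 higher and 16 lower with a median of 0.10, and in Il6-/- recipients 4 higher and 54 lower. Of all genes, 56.3% and 60.2% were called there in either direction.

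**Figure D4:**
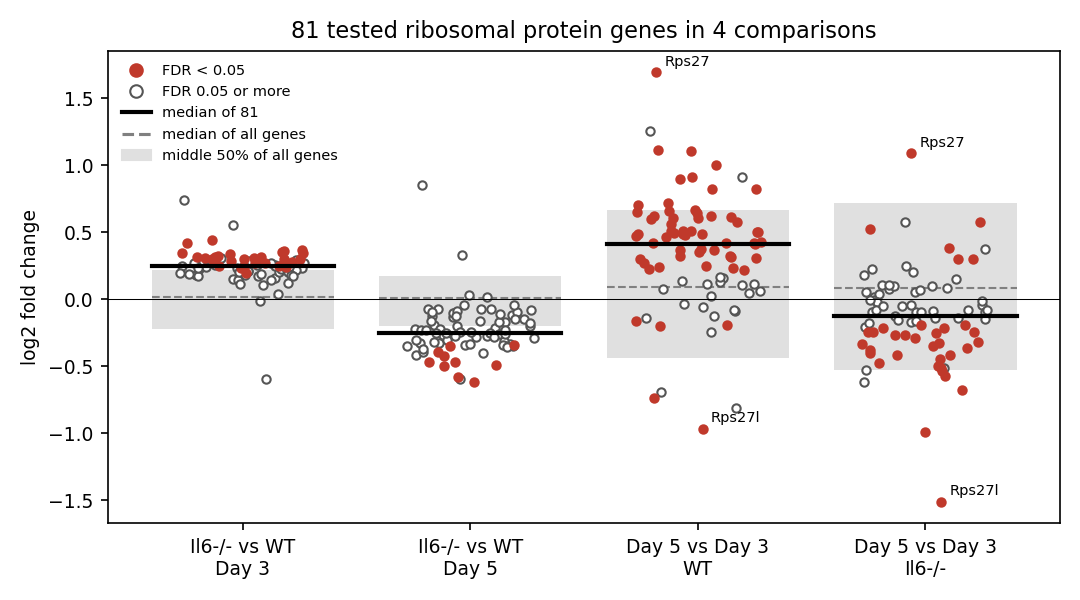
Log2 fold change (y axis) of the 81 tested ribosomal protein genes (points, filled where the FDR was under 0.05) in 4 comparisons, with their median (black line) and the median and middle 50% of all 13570 genes tested (grey). The members' median is 0.25 and −0.25 for Il6-/- against WT recipients on Day 3 and Day 5, and 0.42 and −0.12 for Day 5 against Day 3 in WT and Il6-/- recipients, the last of which was 0.11 with upper-quartile scaling.

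Rps27 rose most among the genes called. It had 735, 839 and 808 CPM in the WT libraries and 778, 817 and 766 CPM in the Il6-/- libraries on Day 3, and 3212, 2580 and 1922 CPM in the WT libraries and 2102, 1278 and 1648 CPM in the Il6-/- libraries on Day 5. Every Day 5 library was above every Day 3 library in both recipients (log2FC 1.70, SE 0.17, FDR = 8.2e-07 in WT and 1.09, SE 0.17, FDR = 4.5e-05 in Il6-/- recipients). Rps27l, its close relative and known as a p53-induced gene, moved the other way. It had 211, 219 and 238 CPM in the WT libraries and 282, 286 and 293 CPM in the Il6-/- libraries on Day 3, and 104, 139 and 99.2 CPM in the WT libraries and 89.6, 106 and 107 CPM in the Il6-/- libraries on Day 5. Again the days did not overlap (log2FC −0.97, SE 0.11, FDR = 3.7e-06 in WT and −1.51, SE 0.11, FDR = 4.7e-08 in Il6-/- recipients). The coding sequences of both have 252 bases, of which 192 (76.2%) are identical, and they share no stretch of 50 bases, so that no exact read of one fits the other within the coding sequence. However, none of the coding stretches of Rps27 was free of an exact match elsewhere in the genome, against 51.7% of those of Rps27l.

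Among the members with the smallest p that rose in WT recipients were also Rpl37a (log2FC 1.11), Rps15a (1.11) and Rpl32 (0.72), each at an FDR of at most 5.8e-06. Rpl37a, a small zinc-binding protein, had 1078, 1200 and 1162 CPM on Day 3 and 2924, 2522 and 1970 CPM on Day 5 in WT recipients, and 1191, 1239 and 1107 CPM and then 2083, 1466 and 1738 CPM in Il6-/- recipients. All Day 5 libraries were thus above all Day 3 libraries of the same recipient. In Il6-/- recipients, these 3 genes had log2FC of 0.58, 0.53 and 0.30 with an FDR of at most 0.0080, and with the offset for gene length Rpl32 turned to −0.08. Rps27, Rpl37a and Rps15a were among the 4 members past 2-fold in WT recipients (4.94% of members, where 12.7% of all genes were higher by at least 2-fold), and in Il6-/- recipients Rps27 was higher and Rps27l lower by at least 2-fold, as were 14.5% and 11.4% of all genes.

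Rps2, a small-subunit protein near the mRNA entry site, fell in both recipients. It had 1952, 1914 and 2079 CPM in the WT libraries and 2349, 2522 and 2384 CPM in the Il6-/- libraries on Day 3. On Day 5, it had 1136, 1195 and 1242 CPM in the WT libraries and 1118, 1286 and 1249 CPM in the Il6-/- libraries, so that the days were far apart and the recipients of Day 5 overlapped (log2FC −0.73 with FDR = 4.4e-07 in WT and −0.99 with FDR = 2.6e-08 in Il6-/- recipients). Rpl14, Rpl7a and Rpl3 had log2FC of −0.20, −0.19 and −0.16 in WT recipients at an FDR of at most 0.023, but with upper-quartile scaling they had −0.01, 0.00 and 0.03, and their calls failed in 2, 3 and 3 of the 12 fits that left out 1 library, each of them without WT replicate 3 of Day 3 (FDR of 0.060, 0.086 and 0.072). In Il6-/- recipients, their log2FC were −0.57, −0.68 and −0.38, with an FDR of at most 3.5e-05. Rpl5 had a log2FC of −0.04 in WT recipients (FDR = 0.63), against −0.53 in Il6-/- recipients (FDR = 2.5e-06).

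**Figure D5:**
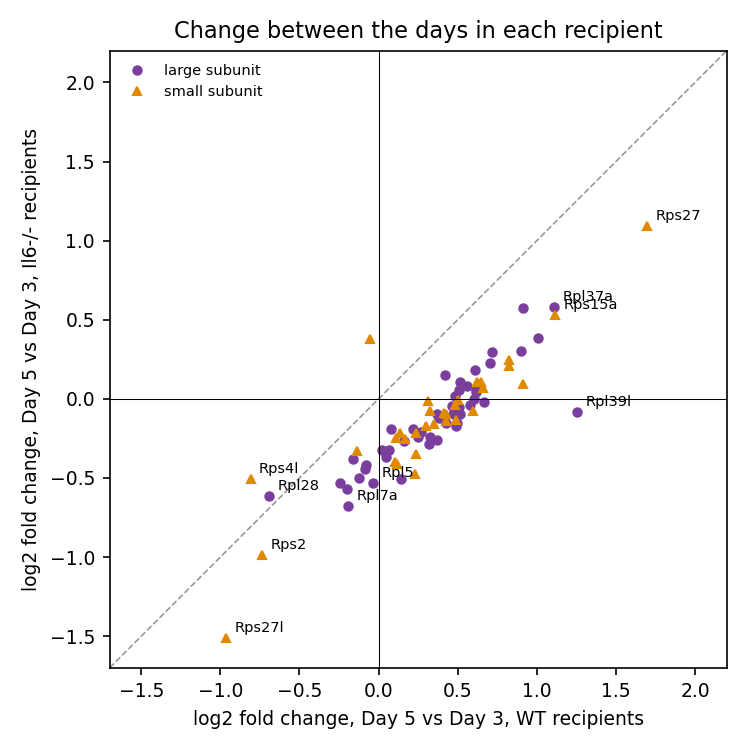
Log2 fold change of Day 5 against Day 3 in WT (x axis) and Il6-/- recipients (y axis) for the 81 tested members (circles, large subunit; triangles, small subunit), with equality as a dashed line. Most points lie below the line, with Rps27 at the upper right and Rps27l and Rps2 at the lower left.

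By role, the stalk of the large subunit recruits elongation factors. Rplp0, at its base, had 2498, 2528 and 2592 CPM in the WT libraries and 3001, 3149 and 2874 CPM in the Il6-/- libraries on Day 3, without overlap (log2FC 0.24, FDR = 0.011, with 0.058 without Il6-/- replicate 2 of that day and 0.052 with upper-quartile scaling). From Day 3 to Day 5, Rplp0 had a log2FC of −0.08 in WT recipients (FDR = 0.26), against −0.42 in Il6-/- recipients (FDR = 1.5e-05). The stalk proteins bound to it, Rplp1 and Rplp2, were higher on Day 5 in WT recipients (log2FC 0.47 and 0.27, FDR = 8.4e-04 and 0.025), with log2FC of −0.05 and −0.21 in Il6-/- recipients (FDR = 0.68 and 0.072). With the offset for gene length, however, the values in WT recipients were 0.05 for Rplp1 (FDR = 0.61) and −0.22 for Rplp2 (FDR = 0.026), and Rplp2 lost its call in 3 of the 12 fits that left out 1 library, without WT replicate 1 or 2 of Day 3 or WT replicate 1 of Day 5 (FDR of up to 0.15). Rpl11, the partner of Rpl5 in the particle with 5S rRNA, was higher in Il6-/- recipients on Day 3 (log2FC 0.31, FDR = 0.029) and rose between the days in WT recipients (log2FC 0.38, FDR = 0.0020), where Rpl5 had −0.04. The call of Rpl11 on Day 3 failed in 5 of the 12 fits that left out 1 library, with an FDR of up to 0.11 without Il6-/- replicate 2 of Day 3.

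Rps6, the small-subunit protein phosphorylated by S6 kinase, had 664, 693 and 726 CPM in the WT libraries and 824, 864 and 830 CPM in the Il6-/- libraries on Day 3, and 768, 740 and 745 CPM and 732, 700 and 692 CPM on Day 5. The recipients stood apart on both days, in opposite directions, and the difference was called on Day 3 (log2FC 0.27, FDR = 0.0084) but not on Day 5 (log2FC −0.09, FDR = 0.49). Rpsa, a small-subunit protein also known as the laminin receptor, was not called on Day 3 (log2FC 0.11, FDR = 0.25) and was among the genes that fell between the days in Il6-/- recipients (log2FC −0.33, FDR = 1.7e-04). Rpl10, a late-joining protein of the large subunit, and Rps4x, encoded on the X chromosome, were both called higher in Il6-/- recipients on Day 3 (log2FC 0.30 and 0.31, FDR = 0.011 and 0.0093), with Rpl10 losing its call in 2 of the 12 fits (FDR = 0.057 without Il6-/- replicate 2 of Day 3). Rpl10a, Rps19, which is mutated in Diamond-Blackfan anemia, and Rpl38, known for its part in the translation of Hox mRNAs, had log2FC of 0.26, 0.20 and 0.26 on that day with an FDR of 0.060, 0.16 and 0.14.

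Rpl22, needed for the development of αβ T cells, had 226, 229 and 237 CPM in the WT libraries and 263, 282 and 253 CPM in the Il6-/- libraries on Day 3, and 394, 353 and 310 CPM and 348, 257 and 300 CPM on Day 5. It rose between the days in WT recipients (log2FC 0.61, FDR = 1.6e-04), whereas its log2FC was 0.18 in Il6-/- recipients (FDR = 0.15), where the days overlapped. Its relative Rpl22l1, not counted among the members, had means of 195 and 238 CPM on Day 3 and 198 and 167 CPM on Day 5 in WT and Il6-/- recipients, and was higher in Il6-/- recipients on Day 3 (log2FC 0.29, FDR = 0.035). Between the days, Rpl22l1 had a log2FC of 0.03 in WT recipients (FDR = 0.80), against −0.51 in Il6-/- recipients (FDR = 1.0e-04). The additional copies Rps4l and Rpl39l, at 0.326 to 3.91 CPM, were called in no comparison. For Rpl39l, the log2FC between the days in WT recipients was 1.26 (FDR = 0.066), with an FDR of 0.018 without WT replicate 1 of Day 5 and 0.035 with upper-quartile scaling.

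Of the 7 ribosomal proteins outside the symbol rule, 4 were called higher in Il6-/- recipients on Day 3 and none lower (median log2FC 0.29). Of all genes, 7.52% were called higher there. None of the 7 was called on Day 5 (median −0.20), and 3 were called lower in the interaction, as were 3.12% of all genes. Rack1, a signaling scaffold on the small subunit, had means of 1128 and 1449 CPM in WT and Il6-/- recipients on Day 3 and 1181 and 1097 CPM on Day 5 (interaction −0.47, FDR = 0.010). Of the 78 proteins of the mitochondrial ribosome, 32 were called higher in Il6-/- recipients on Day 3, 46 were not called and none was lower (median log2FC 0.24), where 7.52% of all genes were called higher. From Day 3 to Day 5, 52 of them were called lower and 3 higher in WT recipients (median −0.36), in which 27.1% of all genes were called lower, 29.5% higher, and 54 of the cytosolic members were called higher. In Il6-/- recipients, 70 were called lower and 1 higher (median −0.64), against 30.1% and 30.4% of all genes. Mrpl12, for example, had means of 128 and 190 CPM on Day 3 and 73.5 and 72.5 CPM on Day 5 in WT and Il6-/- recipients.

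Factors that carry out translation on the ribosome were compared as well. Of 32 initiation factors, 17 were called higher in Il6-/- recipients on Day 3 and none lower (7.52% and 6.19% of all genes), and 1 was called lower on Day 5. Between the days, 20 fell and 5 rose in WT (27.1% and 29.5% of all genes) and 25 fell and 3 rose in Il6-/- recipients (30.1% and 30.4% of all genes). The RNA helicase Eif4a1 had means of 571 and 801 CPM on Day 3 and 283 and 311 CPM on Day 5 in WT and Il6-/- recipients. Of 7 elongation factors, 4 were called higher in Il6-/- recipients on Day 3 (7.52% of all genes), and none was called on Day 5. From Day 3 to Day 5, 4 fell and 1 rose in WT recipients (27.1% and 29.5% of all genes). In Il6-/- recipients, 5 fell and none rose (30.1% and 30.4% of all genes). The one that rose in WT recipients was Eef1b2 (log2FC 0.36, FDR = 0.0027). Of 8 other genes known for TOP mRNAs, 5 were called higher and 1 lower in Il6-/- recipients on Day 3 (7.52% and 6.19% of all genes). These include Npm1, a nucleolar protein of ribosome assembly (log2FC 0.71, FDR = 1.9e-05), and, in the other direction, Vim (log2FC −0.72, FDR = 0.0023). Npm1 then fell between the days, with a log2FC of −0.87 in WT and −1.47 in Il6-/- recipients.

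Of 21 genes of the mTORC1 pathway and of regulators of TOP mRNAs, 2 were called higher (Larp1 and Larp4) and 2 lower (Sesn3 and Ddit4) in Il6-/- recipients on Day 3, with a median log2FC of 0.01. Over all genes, 7.52% were called higher and 6.19% lower. Larp1 had means of 92.0 and 139 CPM on Day 3 in WT and Il6-/- recipients (log2FC 0.59, FDR = 1.5e-04), and 64.9 and 72.1 CPM on Day 5 (log2FC 0.15, FDR = 0.28). Ddit4, an inhibitor of mTORC1, had means of 41.2 and 29.4 CPM on Day 3 (log2FC −0.49, FDR = 0.0145) and 49.0 and 61.7 CPM on Day 5 (log2FC 0.33, FDR = 0.12), with an interaction of 0.82 (FDR = 0.015).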

How the data were processed

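Raw read counts for 40840 gene symbols were deposited for each of the 12 libraries. Per the labels and the paper's methods, the authors made libraries from poly(A) RNA with an ultra-low input protocol, sequenced single-end reads of 50 bases, used Trim Galore 0.4.4 for trimming, STAR 2.5.2a with the GRCm39 genome for alignment, and HTSeq 0.6.1p1 for counting without regard to strand. A deposited table of log2 CPM for 11258 genes holds 79 of the members, and the values recomputed from the counts differed by at most 5e-14.

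The members and gene lists were chosen with earlier results of these data known. The counts were fitted with the quasi-likelihood test of edgeR 4.0.16 (R 4.3.3) over all 12 libraries at once, after filterByExpr on the 4 groups and TMM scaling, and p-values were adjusted by Benjamini-Hochberg over the 13570 genes tested. The median biological coefficient of variation was 0.132 and the prior degrees of freedom were 7.00. A gene was called at an FDR under 0.05 with no limit on the fold change, and the limit of 2-fold was an alternative. No p was computed for the members as a set. On simulated counts, the model was tested and recovered known changes of at least 2-fold. Recovery of smaller changes was not required. No member was called with a 2-fold change between the recipients, so this check does not bear on changes of their size. With 3 libraries a group, an exact permutation test of a single value cannot go below 0.1, so model p-values are given.

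Genes named are the 5 members with the smallest p in each direction among those called in each comparison, the 3 highest and 3 lowest per coding length, members chosen by role, members that left the filter, and up to 4 examples a list. Rpl32l and Rpl6l, and members listed in full after a count, were named after their values were seen. Some genes that this rule names are not reported here, and no others took their place, while counts and medians over the members include them.

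Same-numbered libraries deviated together on Day 5 (correlations of 0.243, 0.207 and 0.129 between the recipients over the genes tested), so the numbers were taken to pair them there. On Day 3 (0.0333, 0.0599 and 0.0325) and between the days they were not. Positions, coding lengths and exact matches came from GENCODE vM39 on GRCm39, and start windows from RefSeq on GRCm38.p6, with no coordinates carried between the builds. The authors' annotation was not used here. The offset for gene length took the whole annotated transcript of each gene. The alternatives were RLE, upper-quartile and no scaling, scaling to the members' total, other filters, DESeq2 1.42.0, limma-voom (limma 3.58.1), the block, offsets for GC content or gene length (loess, span 0.3; 92.8% of genes tested had both), only the groups compared, and each library left out.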

Additional observations from a re-analysis of the deposited data

Results flagged for a closer look

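The effect of the recipient differed between the days for 53 of the 81 tested members, each with a lower log2FC on Day 5 than on Day 3 (interaction, edgeR, FDR under 0.05). Among them are Rpl5 (−0.498), Rpl7a (−0.486), Rps27a (−0.588) and Rps25 (−0.678), given as the difference of log2FC. Groups of 3 libraries are too small for a test of single outlying libraries.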

How the results depend on the processing

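Shares of all genes are given here in either direction and in the order of the settings. The number of members called for Il6-/- against WT recipients on Day 3 (29) was 14 with upper-quartile scaling, 16 without scaling and 55 with a replicate block. It was 51 with an offset for gene length, 66 with both, 56 in a fit of the 2 groups alone and 9 to 40 with 1 library left out. Of all genes, 13%, 13.2%, 19.6%, 15.1%, 20.4%, 22.3% and 6.71% to 14.6% were called (13.7% in the main fit). On Day 5 (10), the number of members was 5 without scaling, 36 without the filter on low counts, 21 with DESeq2 and 50 with the block. It was 6 with the length offset, 28 with both, 0 with the 2 groups alone and 0 to 40 with 1 library left out. Of all genes, 4.93%, 5.41%, 8.31%, 11.7%, 5.02%, 11.7%, 2.76% and 1.61% to 8.38% were called (4.61% in the main fit). For Day 5 against Day 3 with 1 library left out, it was 52 to 61 members in WT recipients (59) and 26 to 38 in Il6-/- recipients (35). Of all genes, 48.8% to 55.6% and 53% to 59.4% were called (56.7% and 60.5% in the main fit). In Il6-/- recipients, it was 33 members with upper-quartile scaling, where more were called higher than lower. The length offset gave 58, and 55 with the block as well. Of all genes, 63.7%, 60.2% and 57.8% were called. The interaction (53) gave 20 with upper-quartile scaling, 17 without scaling and 7 to 69 with 1 library left out. Of all genes, 4.8%, 4.78% and 1.68% to 6.77% were called (4.92% in the main fit). With a limit of 2-fold, the counts over the 5 comparisons were 0, 0, 4, 2 and 0 in this order, with 2.74%, 1.14%, 22.1%, 25.9% and 1.38% of all genes. Scaled to the members' own total, which by construction removes what they share, the count was 0 for both comparisons of recipients and the interaction, and 40 in WT recipients between the days, with 17 higher and 23 lower. Causes of the other differences were not tested. Replicate numbers did not pair the libraries on Day 3 or between the days, and the block changed no direction of a count.

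Results for single genes that were called, or became so, changed direction in 31 cases, none of them with 1 library left out. Scaled to the members' total, log2FC turned to −0.0022 for Rpl3 on Day 3 between the recipients and, between the days in WT recipients, to −0.239 for Rpl10a, −0.0217 for Rpl11, −0.267 for Rpl38, −0.157 for Rpl41, −0.134 for Rplp2, −0.161 for Rps27a, −0.234 for Rps4x, and −0.280 for Rps6. In the interaction, it turned to 0.128 for Rpl10, 0.133 for Rpl14, 0.0187 for Rpl41, 3e-04 for Rpl5, 0.145 for Rpl6, 0.0145 for Rpl7a, 0.157 for Rplp0, 0.0826 for Rps4x and 0.138 for Rps6. With upper-quartile scaling, Rpl3 had 0.0327 and Rpl7a 0.0023 between the days in WT recipients. With the length offset, and with the block as well, the values between the days in WT recipients were −0.411 and −0.417 for Rpl38, −0.165 and −0.172 for Rpl41, −0.221 and −0.225 for Rplp2 and with the offset alone −0.156 for Rps6. In Il6-/- recipients, they were −0.0813 and −0.0807 for Rpl32 and −0.412 and −0.415 for Rps28.

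Of the other results for single genes, 1695 kept their side of the threshold with 1 library left out, 214 lost a call, 49 gained one and 22 changed sign without a call on either side. Under the other settings, these numbers were 1722, 127, 142 and 85. The smallest change called between the recipients was 1.14-fold (Rpl4 on Day 3).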
